A study of Mus musculus with 6 samples.

Results

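The integrated stress response (ISR) and its transcription factor ATF4 were followed here through 35 genes in cultured mouse granulosa cells. They were chosen by name as ATF4 targets and their partners, amino acid synthesis enzymes, amino acid transporters and tRNA synthetases. The choice was made with earlier results of these data known. These genes were read out of the 27151 genes of the deposited expression table, and 34 of them reached the mean level required for testing. Granulosa cells are the somatic, steroid-producing cells of the ovarian follicle. They were collected by puncturing follicles in a medium with milrinone, a phosphodiesterase inhibitor, and cultured for 24 h with serum. All were then starved of serum for 12 h and kept for a further 24 h with or without GSK4112, a small-molecule agonist of the clock repressor NR1D1 (REV-ERBα), with the medium changed every 12 h. There were 3 control and 3 GSK4112 libraries. The series' design text speaks of treatment in vivo, whereas the protocol describes culture, and no dose is given since the labels state it in a unit that is no concentration. No strain, age or sex of donor is given in the sources used here, nor whether each library is its own culture or animal. The p-values therefore speak only to the spread among these 6 libraries, which may be technical.

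In the ISR, kinases that sense different stresses phosphorylate the initiation factor eIF2α, which lowers protein synthesis in general while raising translation of the Atf4 mRNA. ATF4 then pairs with other basic leucine zipper proteins at C/EBP-ATF elements and turns on genes that import amino acids, make them and load them onto tRNA, together with feedback inhibitors such as TRIB3 and GADD34. Since ATF4 is controlled largely through its translation, its own mRNA can stay level while its targets move. ATF4 protein and eIF2α phosphorylation were not measured in these libraries.

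The sequence that ATF4 and its C/EBP partners bind is shown first. The element was searched as TGATGNAAN, where N is any base, on both strands of the 250 bases before each RefSeq transcription start (GRCm38.p6). Of the 29 genes found in the RefSeq promoter table, 8 (27.6%) held it before at least 1 start, compared with 3.9% of the 27025 genes in that table. Those 8 were Atf3, Nupr1, Chac1, Asns, Pycr1, Slc7a11, Aars and Gars. By class, it was present in 2 of 7 transcription factor genes, 1 of 5 genes of feedback and stress effectors, 2 of 7 of amino acid synthesis, 0 of 2 mitochondrial one-carbon genes, 1 of 5 transporter genes and 2 of 3 tRNA synthetase genes. The stretches below carry the element in capitals, 5′ to 3′ on the gene's own strand. They are shown for the 4 genes with an element that had the lowest adjusted p in the comparison.
Nupr1 (chr7:126625563-126625591, minus strand): aaagggccagATTGCATCAgacagggctt
Chac1 (chr2:119350992-119351116, plus strand): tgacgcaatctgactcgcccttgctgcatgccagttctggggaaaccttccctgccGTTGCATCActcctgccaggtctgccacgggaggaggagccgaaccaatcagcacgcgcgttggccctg
Pycr1 (chr11:120643783-120643911, minus strand): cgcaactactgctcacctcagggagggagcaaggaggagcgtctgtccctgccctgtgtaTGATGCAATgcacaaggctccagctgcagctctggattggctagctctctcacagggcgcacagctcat
Atf3 (chr1:191183376-191183504, minus strand): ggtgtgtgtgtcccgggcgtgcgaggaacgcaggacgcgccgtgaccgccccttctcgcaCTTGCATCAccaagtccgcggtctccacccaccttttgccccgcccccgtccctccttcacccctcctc
The first base of the element lay 111 bases before the start in Nupr1 and in Atf3, 194 in Chac1 and 103 in Pycr1. Read from its TGATG end, the element was TGATGCAAT in Nupr1, Pycr1 and Aars, TGATGCAAC in Chac1, TGATGCAAG in Atf3, TGATGAAAC in Asns and TGATGAAAT in Gars. Slc7a11 held it on both strands, as TGATGCAAA each time. The Nupr1 stretch is cut short because an annotated exon covers it. A match is a description of the letters, and binding was not measured. The genes were chosen by name as ATF4 targets and their partners, so a higher share than that of all genes is no independent result.

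Expression is given in FPKM, fragments scaled to exon length and library depth. The steps of the low values implied 16559251 to 18158274 fragments per library. Both replicate 1 libraries were lowest on the first principal component, which held 49.4% of the variance (control -38.59, GSK4112 -13.38). Control replicates 2 and 3 lay at 1.05 and 2.29, and GSK4112 replicates 2 and 3 at 26.56 and 22.07. Within each replicate number GSK4112 was thus higher on this component. The replicate 1 libraries also had more RNA of 10 mitosis genes, with sums of 137 and 103 FPKM against 17.1 to 38.2 elsewhere. Control replicate 2 stood apart in Vegfa, the vascular growth factor gene, at 83.2 FPKM against 12.4 to 24.7 in the other 5 libraries. Of 12 granulosa markers 11 had a mean of at least 1 FPKM and their sum was 2598 to 2915 in control and 1919 to 2695 in GSK4112, with Amh under that level. Markers of endothelium (5 genes, 0.52 to 1.00) and oocyte (6 genes, 0.11 to 3.34) were near 0. Theca and stroma markers (8 genes) summed to 63.3 to 270 in control and 85.9 to 170 in GSK4112, mostly from Acta2, and the theca gene Cyp17a1 was at most 0.055. Leukocyte markers (6 genes) summed to 6.83 to 39.6 and 16.1 to 37.0, mostly from Lyz2, with Ptprc at most 0.068. The highest sum of each of these 2 lists in each group was in its replicate 1 library. Counts of calls are therefore given with and without both replicate 1 libraries.

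The question was whether ATF4 targets differed between GSK4112 and control, and in which functional classes. Trib3 was higher with GSK4112, and a wider group that included Ddit3, Chac1, Atf5 and Slc3a2 passed the test once libraries with the same replicate number were compared with each other. Nupr1 was lower in that same comparison, while Atf4 itself and the tRNA synthetase genes were not called. In limma on log2(FPKM + 1), with Benjamini-Hochberg adjustment over all 12181 genes tested, 2 of 34 genes, Trib3 and Aldh1l2, were called higher (0.410% of all genes tested were) and 0 lower (0.624% of all genes). Aldh1l2 reached the level required for testing only through its GSK4112 libraries, so its call is a description and supports nothing here. Over all genes this was 50 higher and 76 lower, and 43 and 114 under median-of-ratios scaling. Leaving out control replicate 2, control replicate 3, GSK4112 replicate 2 or GSK4112 replicate 3 ended both calls. In that order 14, 15, 16 and 13 of the 34 had an unadjusted p under 0.05 in limma. Over all genes these fits had 1716 of 12197, 1841 of 12176, 1219 of 12138 and 1315 of 12211. With the replicate number as a block, 9 of 34 were higher (3.07% of all genes) and 1 lower (3.82%). The numbers pair the libraries by the correlation of their deviations and not by any label, and replicates 2 and 3 correlated better crosswise. Without both replicate 1 libraries 6 were higher (3.17% of all genes) and 1 lower (3.75%), or 7 (4.06%) and 1 (5.08%) with the block. Without both replicate 2 libraries the block gave 8 higher (2.09%) and 1 lower (3.40%). With both libraries of a number left out, the block leaves 1 residual degree of freedom. The p-values of such fits rest mostly on variance shared across all genes, so calls gained or lost there are a description. Limma-voom on the recovered fragments called 3 higher (0.600%) and 1 lower (0.797%), and with the block 13 (5.47%) and 1 (6.01%). Each of these counts of higher genes includes Aldh1l2. All 3 GSK4112 values lay above all 3 control values in 12 of the 34 (15.7% of all genes) and below them in 3 (7.90%). The difference was positive in every same-numbered pair in 19 (29.8%) and negative in every pair in 4 (18.6%). The median log2 difference was 0.23, beside 0.05 for all genes tested, and it was 0.14 without control replicate 2 and 0.35 without control replicate 1. Since the genes were chosen with earlier results of these data known, their shares and median beside those of all genes are a description. In bulk RNA fewer cells of a type and less RNA per cell cannot be told apart.

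Some markers of the cells themselves differed between the groups too. Of the 12 granulosa markers 2 were called lower and 0 higher without the block (0.624% and 0.410% of all genes tested). With it 3 were lower and 1 higher (3.82% and 3.07%). Of the granulosa markers, Fst, the activin-binding follistatin gene, was at 58.4, 73.2 and 89.1 FPKM in control and 21.3, 24.9 and 25.8 in GSK4112, and Hsd17b1, an estradiol synthesis gene, at 72.4, 62.0 and 58.4 and at 29.4, 21.6 and 24.7. Both were lower (adjusted p = 0.0187 in limma for each), while Inhba was lower and Kitl higher with the block alone (0.0266 and 0.0257). Inha, at 1370 to 2245, made up most of the granulosa sums and was not called. Foxl2, Fshr, Nr5a1, Nr5a2, Esr2 and Cdh2 were not called in either fit, and Amh was under the filter. All 10 mitosis genes were lower with GSK4112 in each same-numbered pair (18.6% of all genes tested were). Top2a, Ccnb1, Cdk1, Plk1 and Kif11 were called lower with the block (adjusted p = 0.0113 to 0.0356 in limma), beside 3.82% of all genes tested. The part of these shifts in the results on ATF4 targets was not tested.

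**Figure D1:**
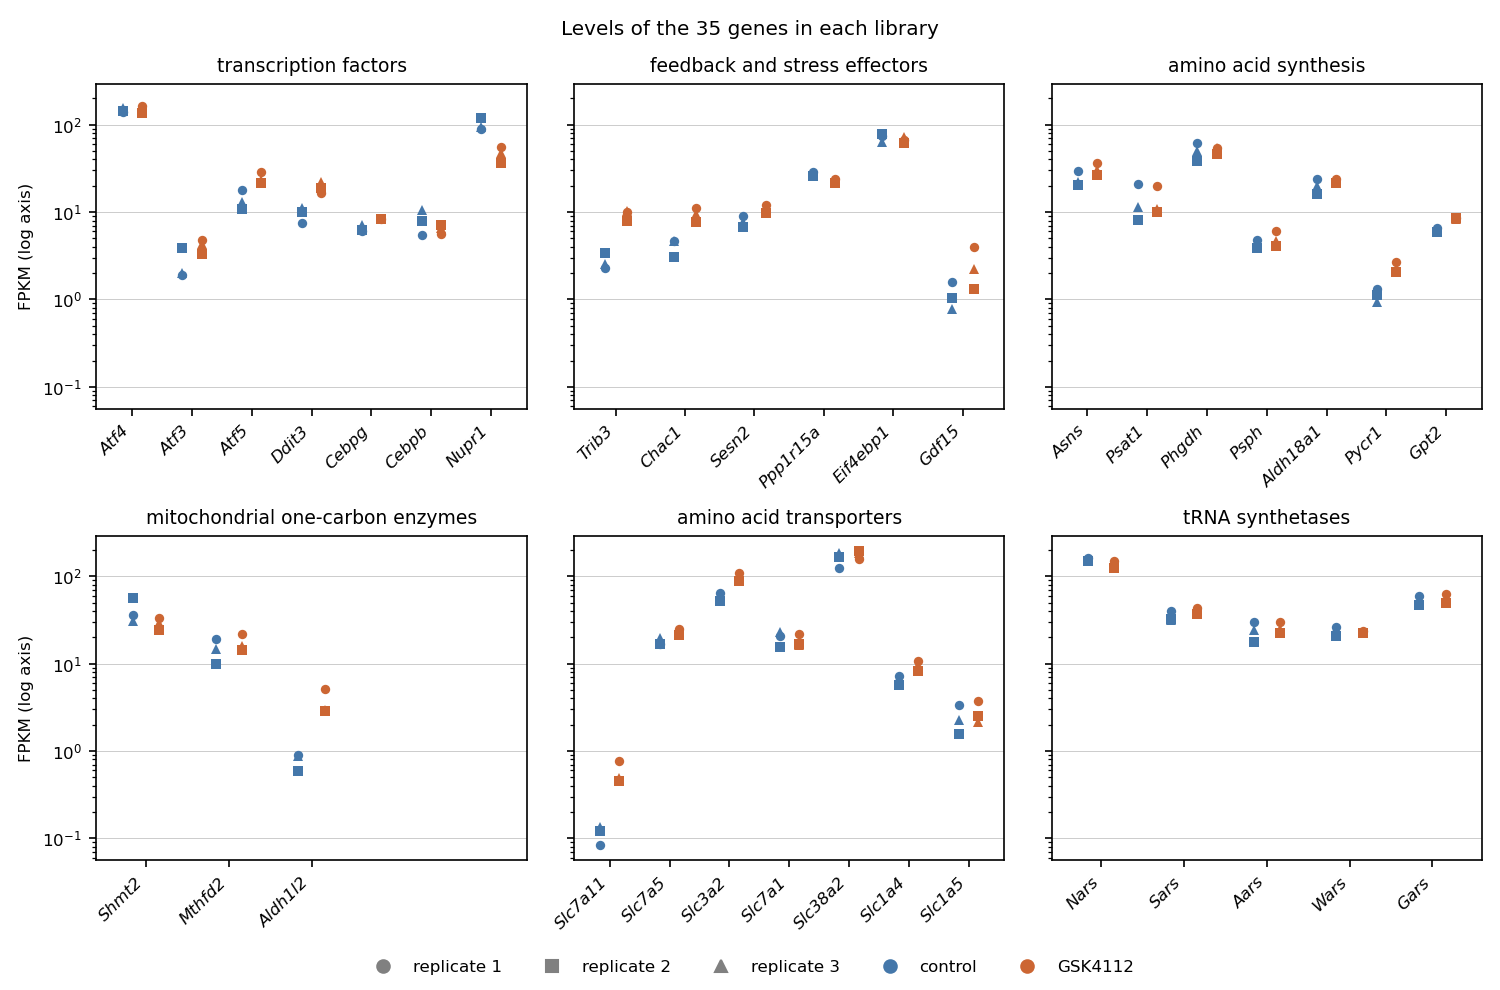
FPKM on a log axis of each of the 35 genes in each of the 6 libraries, in 6 panels by functional class, with control in blue, GSK4112 in orange and a marker shape for each replicate number. Atf4, Slc38a2 and Nars were the most abundant of their classes, and Slc7a11 was the lowest of all at 0.083 to 0.765 FPKM.

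Among the transcription factors, Atf4 itself was not called. Its level was 141, 144 and 155 FPKM in control replicates 1, 2 and 3 and 162, 135 and 150 in GSK4112 replicates 1, 2 and 3. The groups overlapped, and the log2 difference was 0.02 ± 0.0991 (SE), and the adjusted p in limma was 0.9282. Its sign turned under median-of-ratios scaling (-0.039).

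Ddit3 encodes CHOP, a transcription factor that ATF4 turns on and that is known for its part in stress-induced cell death (chromosome 10, 127290774 to 127296288, plus strand). It stood at 7.49, 9.98 and 11.2 FPKM in control and at 16.5, 19.0 and 22.3 in GSK4112, replicates 1 to 3 in that order, as in all values below. Every GSK4112 library lay above every control library, and the ratio of means was 2.02. The log2 difference of 0.95 ± 0.17 (SE) had an adjusted p of 0.0591 in limma, and of 0.0051 with the block. Part of its exons (4.0%) overlaps the more abundant Mars gene on the opposite strand, and the strand setting of the counting is not given in the sources used here.

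Atf5, a relative of ATF4 that is also controlled through its translation and acts in the mitochondrial stress response, lies on chromosome 7 (44812256 to 44816658, minus strand). Its values were 17.9, 10.9 and 13.0 FPKM in control and 29.1, 21.8 and 23.6 in GSK4112. The groups did not overlap, and replicate 1 was the highest library of each group. The log2 difference was 0.81 ± 0.19 (SE), and its adjusted p was 0.108 in limma and 0.0082 with the block.

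Nupr1, a small stress-induced regulator of chromatin and transcription that is often raised by ATF4, went the other way (chromosome 7, 126623249 to 126630861, minus strand). It stood at 89.6, 118 and 93.6 FPKM in control and at 56.0, 36.5 and 46.9 in GSK4112. All GSK4112 values were below all control values, with a ratio of means of 0.46. The log2 difference was -1.11 ± 0.18 (SE), and its adjusted p was 0.0507 in limma and 0.0251 with the block. Its promoter held the same 9 letters, TGATGCAAT, as that of Pycr1, which was higher with the block.

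The other 3 transcription factor genes were not called in either fit. Cebpg, a dimer partner of ATF4, was at 6.50 ± 0.61 FPKM (SD, n = 3) in control and 8.27 ± 0.016 in GSK4112, without overlap (adjusted p = 0.1567 in limma and 0.0993 with the block). Atf3, a stress-induced repressor, was at 1.89, 3.85 and 2.01 in control and 4.75, 3.34 and 4.27 in GSK4112, and its groups overlapped through control replicate 2. Without both replicate 2 libraries it was called higher with the block (adjusted p = 0.0062 in limma). Cebpb, which acts in the ovulatory response of granulosa cells as well as in the ISR, was at 7.97 ± 2.57 and 6.41 ± 0.69 (SD, n = 3). A gene on the opposite strand, Tmem189, overlaps 20.7% of its exon length.

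**Figure D2:**
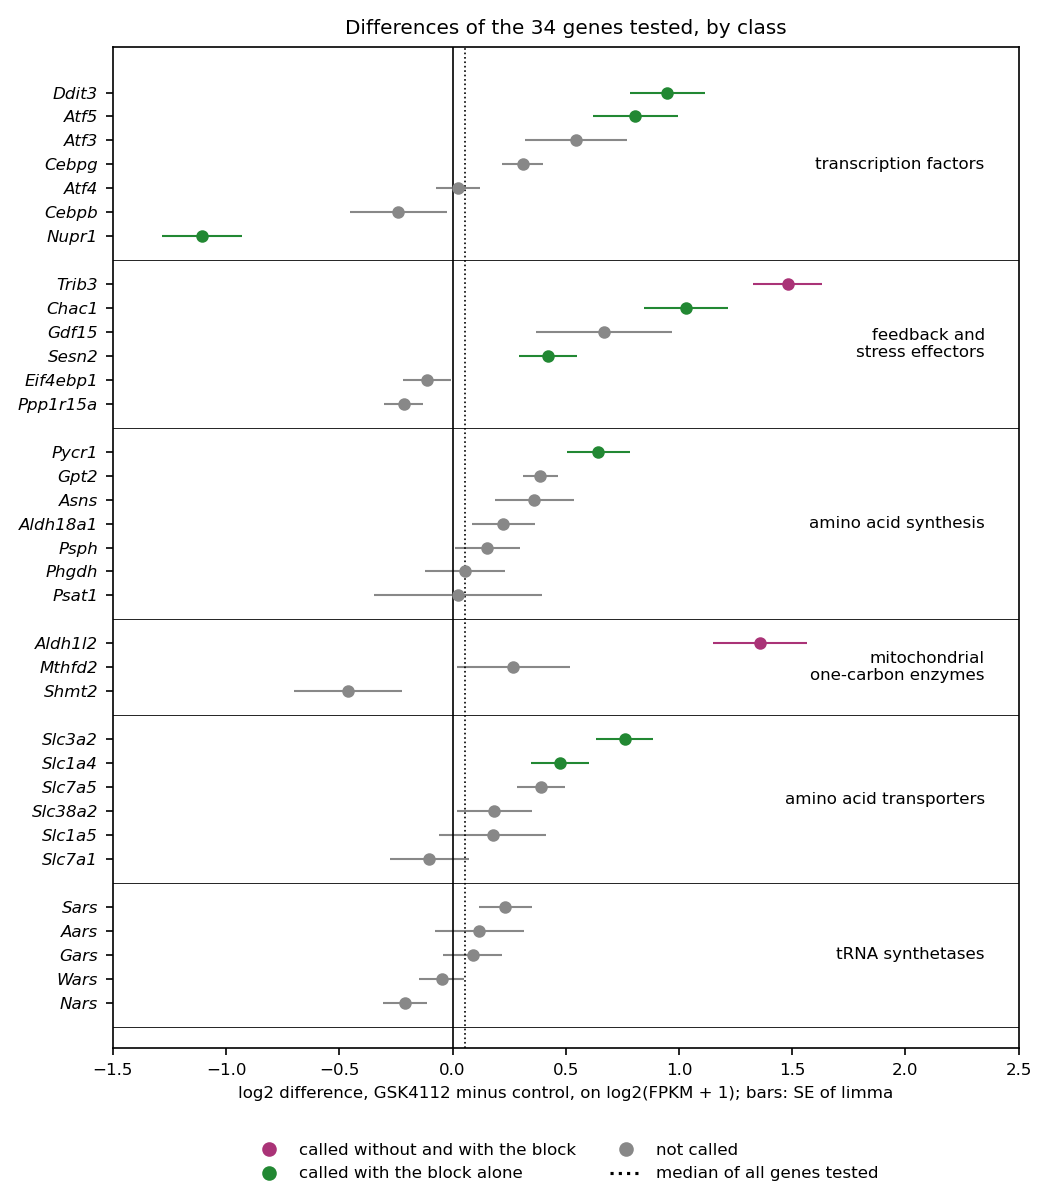
Log2 difference between GSK4112 and control on log2(FPKM + 1) for the 34 genes tested, with bars of 1 standard error of limma, ordered within 6 classes. Trib3 (1.48) and Aldh1l2 (1.36) were called with and without the replicate block, 7 further genes were called higher and Nupr1 (-1.11) lower with the block alone, and the 5 tRNA synthetase genes lay between -0.21 and 0.23.

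Among the feedback and stress effectors, Trib3 encodes a pseudokinase that binds ATF4 and CHOP and restrains them, and also binds AKT (chromosome 2, 152337422 to 152344032, minus strand). It stood at 2.28, 3.38 and 2.52 FPKM in control and at 9.97, 7.82 and 10.3 in GSK4112. These levels rested on 88, 124 and 89 fragments in control and 358, 275 and 382 in GSK4112. The lowest GSK4112 library lay well above the highest control library. Trib3 rose by 1.48 ± 0.15 (SE) on the log2(FPKM + 1) scale (adjusted p = 0.0187 in limma and 0.0076 with the block). The ratio of mean FPKM was 3.44. The call ended without a filter on low values (adjusted p = 0.0565) and without control replicate 2 (0.0517), control replicate 3 (0.0968), GSK4112 replicate 2 (0.0812) or GSK4112 replicate 3 (0.1256), while the difference stayed between 1.39 and 1.60 over the 6 omissions of 1 library.

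Chac1 encodes an enzyme that breaks down glutathione and is a late target of ATF4 and CHOP (chromosome 2, 119351229 to 119354381, plus strand). Its values were 4.64, 3.04 and 4.66 FPKM in control and 11.2, 7.60 and 9.52 in GSK4112. The groups did not overlap, and replicate 2 was the lowest library in both. The log2 difference was 1.03 ± 0.18 (SE), and its adjusted p was 0.0621 in limma and 0.0053 with the block. Sesn2, which encodes a leucine sensor that lowers mTORC1 activity (chromosome 4, 132492032 to 132510501, minus strand), was at 9.03, 6.70 and 7.68 in control and 12.2, 9.77 and 10.4 in GSK4112. The groups did not overlap, and the log2 difference of 0.42 ± 0.13 (SE) passed with the block alone (adjusted p = 0.1799 in limma without it and 0.0385 with it). That call ended under median-of-ratios scaling and without both replicate 1 or both replicate 2 libraries.

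Gdf15, a secreted stress hormone, was at 1.58, 1.03 and 0.779 FPKM in control and 4.03, 1.30 and 2.24 in GSK4112. It was higher in each same-numbered pair, but GSK4112 replicate 2 lay below control replicate 1, and it was not called (adjusted p = 0.326 in limma and 0.082 with the block). It was called higher with the block in voom (0.0329) and with the block without both replicate 2 libraries (0.0111). The eIF2α phosphatase subunit gene Ppp1r15a (GADD34), a feedback target of ATF4, was not among the genes that rose. It was at 29.1, 26.0 and 25.6 in control and 23.9, 21.6 and 23.5 in GSK4112, all GSK4112 values lying below control, and was not called (log2 difference -0.22 ± 0.0857 SE, adjusted p = 0.2739 in limma). Eif4ebp1, the translation repressor 4E-BP1 and the most abundant member of its class, overlapped at 73.3, 78.5 and 64.2 against 66.7, 61.3 and 71.4.

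**Figure D3:**
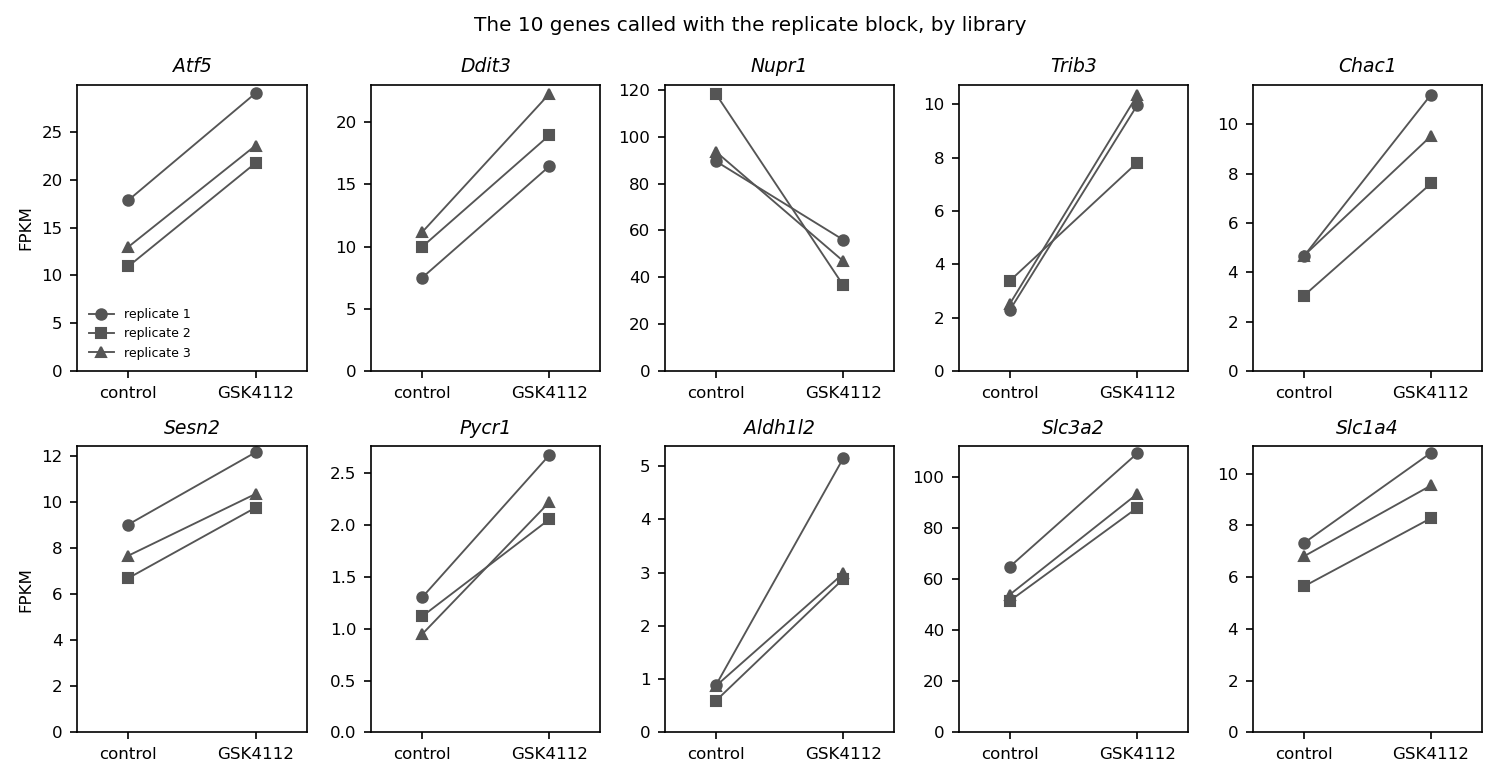
FPKM in control and GSK4112 of the 10 genes called with the replicate block, with a line joining the 2 libraries of each replicate number and each vertical axis starting at 0. The lines rise in 9 genes and fall in Nupr1, and the groups do not overlap in any of the 10.

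Among the 7 genes of amino acid synthesis every log2 difference was above 0 (0.02 to 0.64, median 0.22). Over all 12181 genes tested 7415 were above 0, with a median of 0.05. None of the 7 was called without the block. Under median-of-ratios scaling Psat1 and Phgdh turned to -0.035 and -0.0071. Pycr1, which makes proline in mitochondria (chromosome 11, 120635712 to 120643769, minus strand), was at 1.30, 1.12 and 0.947 FPKM in control and 2.68, 2.06 and 2.22 in GSK4112. Its groups did not overlap, its ratio of means was 2.07, and its log2 difference of 0.64 ± 0.14 (SE) had an adjusted p of 0.0899 in limma and 0.0355 with the block. That call ended without both replicate 1 or both replicate 2 libraries. Gpt2, the mitochondrial alanine transaminase gene, was at 6.25 ± 0.28 and 8.47 ± 0.18 FPKM (SD, n = 3), without overlap, and just missed the threshold with the block (adjusted p = 0.0807 in limma and 0.0502 with the block). With the block in voom it was called higher (0.0251), as was Asns (0.0369).

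Asns, asparagine synthetase and one of the best known ATF4 targets, was at 29.7, 20.3 and 22.2 FPKM in control and 36.9, 26.3 and 30.1 in GSK4112. It was higher in each same-numbered pair although the groups overlapped, and was not called (log2 difference 0.36 ± 0.17 SE, adjusted p = 0.3567 in limma and 0.0515 with the block). Aldh18a1, which starts proline synthesis, and Psph, the last enzyme of serine synthesis, were likewise higher in each pair and not called (19.9 ± 3.76 and 23.2 ± 1.22, and 4.30 ± 0.48 and 4.93 ± 0.99 FPKM, SD, n = 3). The other serine synthesis genes stayed nearest to 0. Phgdh, the first enzyme of that pathway and the most abundant of the class, was at 61.8, 37.9 and 50.7 in control and 54.1, 46.1 and 53.6 in GSK4112 (log2 difference 0.06 ± 0.18 SE). Transcripts of several pseudogenes match 84.2 to 84.6% of its sequence at 95% identity or more, so its level is uncertain. Psat1 was at 21.2, 8.19 and 11.5 in control and 19.7, 9.89 and 10.9 in GSK4112, with replicate 1 highest in both groups. Exons of the more abundant Cct6a on the opposite strand overlap 10.4% of Psph.

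Among the 3 mitochondrial one-carbon enzymes, Aldh1l2 encodes the mitochondrial 10-formyltetrahydrofolate dehydrogenase, which releases the one-carbon unit and makes NADPH (chromosome 10, 83487450 to 83534140, minus strand). It stood at 0.888, 0.595 and 0.873 FPKM in control, all under 1, and at 5.15, 2.88 and 2.98 in GSK4112. The fragments behind these values numbered 121, 77 and 109 in control and 653, 358 and 389 in GSK4112. Since it passed the filter on low values only through its GSK4112 libraries, its log2 difference of 1.36 ± 0.21 (SE) on the same scale and its adjusted p of 0.046 in limma and 0.0085 with the block are a description. All GSK4112 libraries lay above all control libraries, with a ratio of mean FPKM of 4.67. Its call ended without a filter (adjusted p = 0.1306) and on leaving out any 1 library other than GSK4112 replicate 1 (0.0584 to 0.2015). The opposite-strand gene D10Wsu102e, at a mean of 0.514 FPKM, overlaps 14.1% of its exon length.

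Shmt2, which passes the one-carbon unit from serine to folate and was the most abundant of the 3, was at 35.9, 57.0 and 30.4 FPKM in control and 33.5, 24.0 and 28.9 in GSK4112. It was lower in each same-numbered pair, and was not called (log2 difference -0.46 ± 0.24 SE, adjusted p = 0.3829 in limma). Its highest value was in control replicate 2, the library that also held the highest Vegfa and the highest Mthfd1l, another mitochondrial folate gene (12.4 against 3.62 to 5.77 FPKM in the other 5). Without that library the Shmt2 difference was -0.21. Mthfd2, the next enzyme in the pathway, was at 19.1, 9.89 and 14.6 in control and 22.0, 14.4 and 15.8 in GSK4112, higher in each pair and not called (adjusted p = 0.6257 in limma).

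Among the amino acid transporters, Slc3a2 and Slc1a4 were higher with the block. Slc3a2 encodes the heavy chain CD98 that several light chains need to reach the membrane (chromosome 19, 8706882 to 8723369, minus strand). It stood at 64.8, 51.4 and 53.9 FPKM in control and at 109, 87.8 and 93.2 in GSK4112. The groups were clearly apart, with a ratio of means of 1.71. The log2 difference of 0.76 ± 0.13 (SE) had an adjusted p of 0.0526 in limma and 0.0082 with the block. Its light chain for large neutral amino acids, Slc7a5 (LAT1), was at 16.7, 16.7 and 19.8 in control and 25.0, 21.2 and 24.4 in GSK4112. These groups did not overlap either, but the adjusted p was 0.139 in limma and 0.0583 with the block (0.0346 with the block in voom). Slc1a4 encodes the carrier ASCT1 for alanine, serine and cysteine (chromosome 11, 20302180 to 20332713, minus strand). It was at 7.31, 5.64 and 6.80 in control and 10.8, 8.28 and 9.54 in GSK4112, without overlap (log2 difference 0.47 ± 0.13 SE, adjusted p = 0.1431 in limma and 0.0281 with the block). That call ended without both replicate 2 libraries.

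Slc7a11, the cystine-glutamate exchanger xCT and a further light chain of CD98, was the single gene under the filter on low values. Without a filter it was not called (adjusted p = 0.1488 in limma). Its values were 0.083, 0.121 and 0.134 FPKM in control and 0.765, 0.451 and 0.488 in GSK4112, which came from 21, 29 and 31 fragments and from 180, 104 and 118 fragments. All GSK4112 libraries lay above all control libraries, with a ratio of means of 5.05. A stretch of 372 bases of its longest transcript matches the abundant alpha-tubulin transcripts at 95% identity or more, so its low level is uncertain. Slc38a2, the system A carrier SNAT2 and the most abundant of the class, overlapped at 125, 166 and 187 FPKM in control and 158, 196 and 185 in GSK4112 (log2 difference 0.19 ± 0.17 SE, adjusted p = 0.6102 in limma). The glutamine carrier gene Slc1a5 (2.40 ± 0.90 and 2.82 ± 0.82 FPKM, SD, n = 3) and the cationic amino acid carrier gene Slc7a1 (19.7 ± 3.93 and 18.2 ± 3.04) overlapped too.

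None of the 5 tRNA synthetase genes was called, with or without the block, and their median log2 difference was 0.09. Nars, for asparagine, was the most abundant at 162, 151 and 154 FPKM in control and 149, 124 and 132 in GSK4112. Its GSK4112 values all lay below its control values (log2 difference -0.21 ± 0.0966 SE, adjusted p = 0.3386 in limma). Sars, for serine, was at 34.5 ± 4.63 and 40.6 ± 3.07 FPKM (SD, n = 3), and Gars, for glycine, at 52.4 ± 6.97 and 55.7 ± 6.46. Aars, for alanine, was at 23.9 ± 6.14 and 25.7 ± 3.61, and Wars, for tryptophan, at 23.9 ± 2.71 and 23.0 ± 0.64. The summed FPKM of the 5 was 290.4 ± 25.3 in control and 279.8 ± 26.2 in GSK4112. The 7 transporter genes summed to 238, 256 and 293 in control and to 329, 333 and 331 in GSK4112, without overlap. Slc38a2 and Slc3a2 made up most of the transporter sums.

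Side by side, the classes had median log2 differences of 0.55 for feedback and stress effectors, 0.31 for transcription factors, 0.29 for transporters, 0.27 for one-carbon enzymes, 0.22 for amino acid synthesis and 0.09 for tRNA synthetases. With the block, 3 of 6 feedback and stress effectors, 2 of 7 transcription factors, 2 of 6 transporters tested, 1 of 3 one-carbon enzymes, 1 of 7 synthesis genes and 0 of 5 synthetases were higher. Over all genes tested 3.07% were higher with the block and 3.82% lower. The 1 lower gene, Nupr1, was among the transcription factors. The 1 one-carbon call was that of Aldh1l2, which passed the filter only through its GSK4112 libraries and is a description. The differences between classes were not tested, and the order of the medians is not firm. Leaving out 1 library gave 0.36 to 0.71 for feedback and stress effectors (lowest without GSK4112 replicate 1), 0.26 to 0.37 for transcription factors and 0.29 to 0.39 for transporters. It gave 0.034 to 0.48 for one-carbon enzymes, 0.09 to 0.38 for amino acid synthesis and -0.074 to 0.19 for tRNA synthetases, each lowest without control replicate 2 and highest without control replicate 1. The one-carbon median was also 0.096 without GSK4112 replicate 1, and -0.097 with a filter of 5 FPKM, which removed Aldh1l2. That of the synthetases was 0.0028 without GSK4112 replicate 1 and 0.17 without GSK4112 replicate 2. Of the 8 genes with the element TGATGNAAN, Chac1 and Pycr1 were higher and Nupr1 lower with the block, Slc7a11 was under the filter, and Atf3, Asns, Aars and Gars were not called. Of the 9 genes called higher with the block, 8 were in the promoter table and 2 of these held the element.

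The machinery upstream of ATF4 was read in 2 lists. On log2(FPKM + 1) with all 6 libraries, none of 8 genes of the eIF2 kinases and their partners was called, with or without the block. The same held for 8 eIF2 and eIF2B subunit genes, and the medians were 0.06 and -0.04. Eif2ak3, the ER stress kinase PERK, was at 6.32, 4.70 and 5.93 FPKM in control and 7.87, 7.80 and 8.05 in GSK4112. Its groups did not overlap, with an adjusted p of 0.1327 in limma and 0.061 with the block. Eif2ak3 was called higher with the block without both replicate 1 libraries and with the block in voom. Impact, of the same list, was called higher with the block in voom too. It was at 21.3, 16.8 and 19.7 FPKM in control and 29.75, 25.4 and 22.4 in GSK4112, without overlap (adjusted p = 0.2021 in limma and 0.0703 with the block). Eif2ak1, the heme-regulated kinase HRI, was at 9.34 ± 0.43 and 10.9 ± 0.68 (SD, n = 3), also without overlap (adjusted p = 0.2975 in limma). Eif2ak2 (PKR) at 6.80 ± 0.41 and 6.72 ± 0.99 and Eif2ak4 (GCN2, the sensor of uncharged tRNA) at 7.72 ± 0.94 and 7.99 ± 0.31 overlapped. These mRNA levels say nothing of kinase activity.

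Among 18 further ATF4 targets tested, of 19 listed, none was called without the block (median 0.20). With it 2 were higher and 1 lower, beside 3.07% and 3.82% of all genes tested. Pck2, the mitochondrial PEPCK gene, was at 21.01, 24.6 and 25.1 FPKM in control and 31.7, 36.3 and 40.1 in GSK4112 (log2 difference 0.59 ± 0.12 SE, adjusted p = 0.0772 in limma and 0.0148 with the block). Herpud1, which acts in degradation at the ER, was at 22.1, 15.9 and 18.7 in control and 27.6, 27.7 and 28.1 in GSK4112 (adjusted p = 0.0965 in limma and 0.0388 with the block). Cth, which makes cysteine from cystathionine, was at 3.77, 3.82 and 4.29 in control and 2.63, 1.21 and 1.94 in GSK4112 (log2 difference -0.79 ± 0.19 SE, adjusted p = 0.1126 in limma and 0.0397 with the block). The groups of all 3 were apart, and Pck2 kept its call with the block without both replicate 1 or both replicate 2 libraries. The calls of Herpud1 and Cth ended without both replicate 2 libraries, and that of Herpud1 also under median-of-ratios scaling. Without both replicate 1 libraries Mthfd1l, Fam129a and Vegfa were called lower with the block, and Fam129a also without it. The Vegfa and Mthfd1l calls leaned on control replicate 2. Vegfa was at 83.2 and 21.8 FPKM in control replicates 2 and 3 and at 22.3 and 20.7 in GSK4112 replicates 2 and 3. Mthfd1l was at 12.4 and 5.49, and at 3.62 and 4.07. Leaving out control replicate 1 alone called Fam129a lower and Herpud1 higher without the block. With the block in voom Slc6a9, Slc7a3 and Sqstm1 were called higher, as was Vldlr with the block without both replicate 2 libraries. Slc7a3 had a mean of 0.949 FPKM in control and 1.841 in GSK4112. It passed the filter only through its GSK4112 libraries, so its call is a description. Fgf21, a hormone gene that ATF4 induces, was chosen after its values were seen. It had 0 fragments in each control library and 16, 5 and 6 in GSK4112, and was under the filter (adjusted p = 0.247 in limma without one).

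The remaining 15 cytosolic tRNA synthetase genes held no called gene in either fit (median 0.01, range -0.29 to 0.24). Of 17 mitochondrial synthetase genes none was called either (median 0.06), nor was any of 8 genes of mitochondrial protein quality control, the chaperones and proteases of that compartment (median 0.00). XBP1 and ATF6 lead the other arms of the ER stress response. Of 16 ER chaperones and targets of these factors, 12 had a log2 difference below 0 (39.1% of all genes tested did), with a median of -0.22 beside 0.05 for all genes. None was called without the block, and Pdia6 and Manf were lower with it (3.82% of all genes tested were). Pdia6, a disulfide isomerase gene, was at 98.9, 72.0 and 78.1 FPKM in control and 60.7, 54.8 and 59.3 in GSK4112 (adjusted p = 0.1331 in limma and 0.0425 with the block). Manf, a secreted ER protein, was at 34.7, 22.0 and 25.7 and at 20.7, 15.6 and 17.0 (0.1826 and 0.0188). The call of Manf held with the block without both replicate 1 or both replicate 2 libraries, and that of Pdia6 ended in both. Hsp90b1 was called lower with the block under median-of-ratios scaling and in voom. Of these 16 genes 6 had all GSK4112 values below all control values (7.90% of all genes tested) and 1 had them above (15.7%).

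Slc7a11 is also a target of NRF2, and Sesn2 and Gdf15 of p53, so 2 lists of other targets of these factors were set beside them. None of 8 NRF2 targets was called (median 0.31), the largest difference being that of Nqo1 at 2.41, 5.26 and 2.79 FPKM in control and 12.8, 6.73 and 7.22 in GSK4112 (adjusted p = 0.134 in limma and 0.071 with the block). Nqo1, an NAD(P)H quinone reductase gene, was named after its values were seen, and was called higher with the block without both replicate 1 or both replicate 2 libraries, and with the block in voom. Hmox1 and Srxn1, of heme breakdown and sulfinic acid reduction, were called higher with the block without both replicate 2 libraries. Of 10 p53 targets (median 0.11) none was called without the block. With it Btg2 was lower, as were 3.82% of all genes tested. Btg2, an antiproliferative gene, was at 46.1, 22.3 and 16.8 in control and 34.0, 13.5 and 13.5 in GSK4112, and its groups overlapped (adjusted p = 0.6518 in limma and 0.0478 with the block). That call ended without both replicate 2 libraries. Bax, a gene of apoptosis, was called higher without both replicate 1 libraries, with and without the block.

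**Figure D4:**
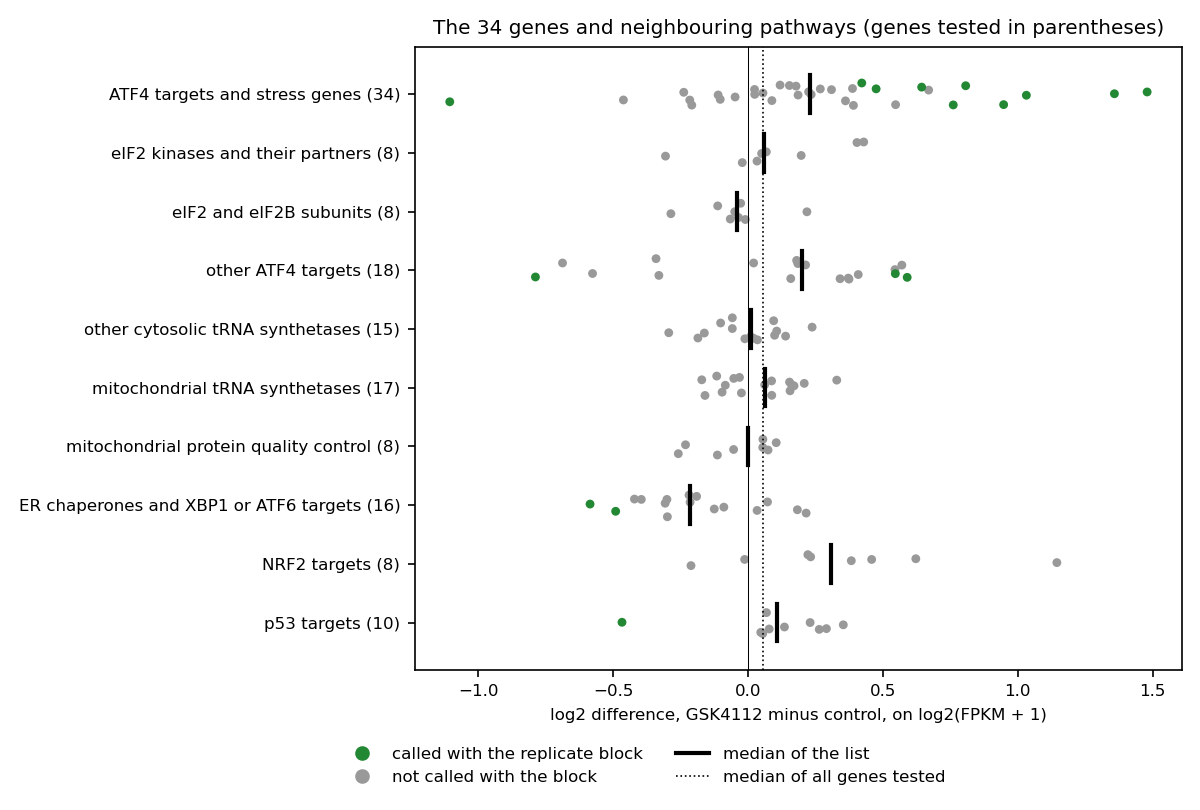
Log2 difference between GSK4112 and control on log2(FPKM + 1) for the 34 genes tested and for 9 neighbouring lists, each dot a gene, green where called with the replicate block, with the median of each list as a vertical bar. The medians run from -0.22 in the ER chaperone list to 0.31 in the NRF2 list, and the dotted line marks the median of all genes tested at 0.05.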

How the data were processed

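The authors deposited 1 table of FPKM values for 27151 Ensembl genes in 6 columns, 1 per library, each matched to its sample by name. The build was GRCm38, per the submitters' processing notes, while aligner, counter, annotation and strand option were not given in the sources used here. That the unit is FPKM comes from the table's name and values. Symbols came from GENCODE M21, which held 27098 of the IDs. FPKM times exon length gave steps of whole fragments (whole within 0.01 for 92.8 to 93.1% of values under 500 fragments), from which depth and fragments were taken.

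The 12181 genes at or above 1 FPKM on average entered limma 3.58.1 (R 4.3.3) as log2(FPKM + 1), with a variance trend, 2-sided, at a Benjamini-Hochberg adjusted p under 0.05. This scale understates changes of low genes. Errors with log2 differences are standard errors. The test was checked on simulated data. That simulation drew independent libraries, so it does not cover deviations shared by same-numbered libraries. No 2 libraries held identical values. Same-numbered samples deviated together from their group means (correlations 0.665, 0.326 and 0.213, each over the limit of 0.1), so a second fit blocked on replicate number stands beside results it changes. This pairing comes from the data, and GSK4112 replicates 2 and 3 correlated better with control replicates 3 (0.53) and 2 (0.357) than with their own numbers. An exact permutation of 3 against 3 cannot give a p under 0.1.

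The 35 genes, classes and lists were chosen with earlier results of these data known. Promoter sequences came from RefSeq (GRCm38.p6). Alternatives are listed in the closing section. Every gene is accounted for. Values by library are given for genes called in either fit, for Atf4 and Ddit3, and for the most abundant of each class, and for others chosen after their values were seen.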

Additional observations from a re-analysis of the deposited data

How the results depend on the processing

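The alternatives were a pseudocount of 0.1, a low-value filter of 5 FPKM or none, TPM and median-of-ratios scaling, robust limma, voom on recovered fragments, the replicate block, each library left out in turn, and both replicate 1 libraries left out with or without the block. Added after the data were seen were the block with median-of-ratios scaling or with voom, and the block without both replicate 2 libraries. Fits with the block on 2 pairs leave 1 residual degree of freedom, so their p-values rest mostly on variance shared across all genes. Over these 19 settings and the 34 genes tested, 553 of 640 values kept their direction and side of the threshold, 55 gained a call, 11 lost one and 21 changed sign.

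Over all genes, higher and lower calls numbered 9 and 17 without a filter, 374 and 465 with the replicate block, 383 and 454 without both replicate 1 libraries, and 491 and 614 when that was combined with the block. With the block they were 231 and 556 under median-of-ratios scaling, 666 and 732 in voom, and 254 and 414 without both replicate 2 libraries. Leaving out 1 library gave 0 to 57 and 0 to 92. The 0 calls, without control replicate 3, GSK4112 replicate 2 or GSK4112 replicate 3, stood beside 1841, 1219 and 1315 genes at an unadjusted p under 0.05 in limma. Median-of-ratios scaling without the block gave 43 higher and 114 lower.

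Of the ATF4 genes, 0 were higher without a filter, 9 with the replicate block, 6 without both replicate 1 libraries, 7 with the block added, 8 with the block and median-of-ratios scaling, 13 with the block and voom, and 8 with the block without both replicate 2 libraries, and 0 to 3 on leaving out 1 library. The 1 lower gene, Nupr1, was called with the filter of 5 FPKM, under TPM and median-of-ratios scaling, in voom, in every fit with the block and without both replicate 1 libraries (0 to 1 on leaving out 1 library). Neighbouring lists had 2 higher and 4 lower calls with the block, 3 and 3 without both replicate 1 libraries, 5 and 6 with the block added, 1 and 5 with the block and median-of-ratios scaling, 8 and 5 with the block and voom, 5 and 1 with the block without both replicate 2 libraries, and 0 to 1 in each direction on leaving out 1 library. These lists held 108 genes tested, and over all genes tested the block called 3.07% higher and 3.82% lower. The 8 higher calls with the block and voom include Slc7a3, which passed the filter only through its GSK4112 libraries. The median of feedback and stress effectors was 0.76 in voom and 0.80 with the block added. That of tRNA synthetases ran from -0.074 to 0.19 on leaving out 1 library.

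With all 6 libraries on log2(FPKM + 1) the block changed no call of the 34 genes or the neighbouring lists beyond those named in the results. In voom with the block Gdf15, Asns, Gpt2 and Slc7a5 were called too, and Atf3 and Gdf15 with the block without both replicate 2 libraries. Signs turned in genes near 0. Under median-of-ratios scaling, with or without the block, Atf4 was at -0.039, Psat1 at -0.035 and Phgdh at -0.0071. Without both replicate 1 libraries Atf4 was at -0.066, with or without the block. Without both replicate 2 libraries Eif4ebp1 was at 0.0091, Psat1 at -0.087 and Phgdh at -0.055. On leaving out 1 library Atf4 ran from -0.038 to 0.093, Psat1 from -0.26 to 0.38, Phgdh from -0.13 to 0.22, Slc7a1 from -0.26 to 0.012, Slc1a5 from -0.0085 to 0.37, Aars from -0.074 to 0.29 and Wars from -0.14 to 0.016. The cause was not tested. Depth limits Slc7a11 and Fgf21, which had few fragments.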
